A study of Mus musculus with 2 samples.

Results

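The genes described here make cholesterol and control the SREBP transcription factors that switch its synthesis on. They were compared between RAW 264.7 cells, a mouse macrophage-like line that can turn into osteoclast-like cells, kept in a rotary cell culture system (RCCS, a rotating vessel used to model microgravity) and control cells kept at ground level. The 28 genes were chosen by name, as every non-control probe of the array that carries the name of a listed gene or an older alias of it (Msmo1 is printed as Sc4mol). They had 59 probes, and 27 of the 28 genes were measured on both arrays, out of 16022 genes measured in all. Each condition had 1 array, the groups being labelled control and RCCS. Both were grown in DMEM with serum. The protocol text names 24 h in the RCCS and RANKL, the cytokine that drives osteoclast formation, at 80 ng/ml for 24 h. It is the same for both samples and does not settle whether the control cells also received RANKL.

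Cholesterol is built from acetyl-CoA through mevalonate, isoprenyl diphosphates, squalene and lanosterol. When sterols in the endoplasmic reticulum are scarce, the escort protein SCAP carries the membrane-bound SREBP precursors to the Golgi, where 2 proteases release the active factor; INSIG proteins hold SCAP back when sterols are plentiful. Genes of the pathway and Insig1 itself are known targets of SREBP-2, so that their transcripts commonly move together.

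With 1 array per condition there is no test between conditions and no error between cultures, and a difference below is RCCS against control on these arrays. Values are processed signals of the scanner software as deposited, and each log2 ratio was taken after each array's signal was divided by its own 75th percentile, 849 for the control and 966 for the RCCS. The software's spot error of a single probe's log2 ratio was 0.204 (SD) for the median member probe. It is nearly the same for every bright probe and is assigned, not measured. The probes printed 10 or more times on the array, at a signal of 100 or more, had a median SD of 0.04 (n = 117 probes) between spots. Both leave out the spread between cultures, extractions and labellings, and in bulk RNA fewer cells of a type and less RNA per cell cannot be told apart. Of 41171 probes, 57.5% were well above background for the control and 60.6% for the RCCS. All 7 macrophage markers were measured on both arrays, from Spi1 at -0.72 to Itgam, with probes at 1.98 and 2.02, in log2 ratio. Of 6 fibroblast or osteoblast markers, 2 were measured on both arrays, Col1a2 at -0.55 and Runx2 at 2.21. Pdgfra passed background on neither array. Another 3 passed it only under RCCS, Col1a1, Sp7 and Dcn (decorin), with Dcn at 15.2 (control) and 462 (RCCS). The brightest probes of these 6 summed to 193 and 806, and Dcn made up most of the 806. The macrophage markers summed to 662973 and 762917, of which Lyz2 made up most. The 4 T or B cell markers were dim on both arrays, summing to 362 and 397, and 4 epithelial markers summed to 161 and 102. The part of such signals in the results below was not tested.

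Most genes of sterol synthesis were lower on the RCCS array, by less than 2-fold in most cases, and a few members of the SREBP system were not. Of the 27 measured members, 23 had a log2 ratio below 0 (Tm7sf2 by less than rounding), where 61.8% of all measured genes did, and 21 lay below the median of all measured genes, where 50% of genes lie by construction. The median was -0.57, against -0.13 for all measured genes. In the direction of lower signal, 5 members were at least 2-fold lower, Insig1, Stard4, Fdps, Idi1 and Msmo1, where 3.76% of all measured genes were. At 1.5-fold, 13 members were lower, where 14.8% of all genes were, and 0 were higher at 1.5-fold or 2-fold (9.74% and 3.88% of all genes). The members with log2 ratios above 0 were Fdft1 (0.51), Insig2 (0.51), Ggps1 (0.27) and Scap (0.03). Allowing for spot error alone, the 95% interval lay wholly below the median of all genes for 18 members and wholly above it for 3 (Ggps1, Insig2 and Fdft1), and held it for 6 (Acat2, Sqle, Tm7sf2, Ebp, Sc5d and Scap). No such count was made over all measured genes, so these counts have no share of all genes beside them. The interval also leaves out the spread between a gene's probes. For Fdft1 it has no meaning, since its probes lay 2.56 apart. Mbtps2, among the 18, had a probe at -0.12, above the median of all genes. Ggps1, among the 3, had its bright probes at 0.10 and 0.12 and a dim one at 0.60. Of 55 measured member probes 48 (87.3%) were below 0, beside 60.7% of all measured probes. Of the 19 members with 2 or more measured probes, 16 had all of them below 0, and Fdft1 was the member with probes on both sides of it. The matching share of the 5092 genes with 2 or more measured probes was not counted.

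**Figure D1:**
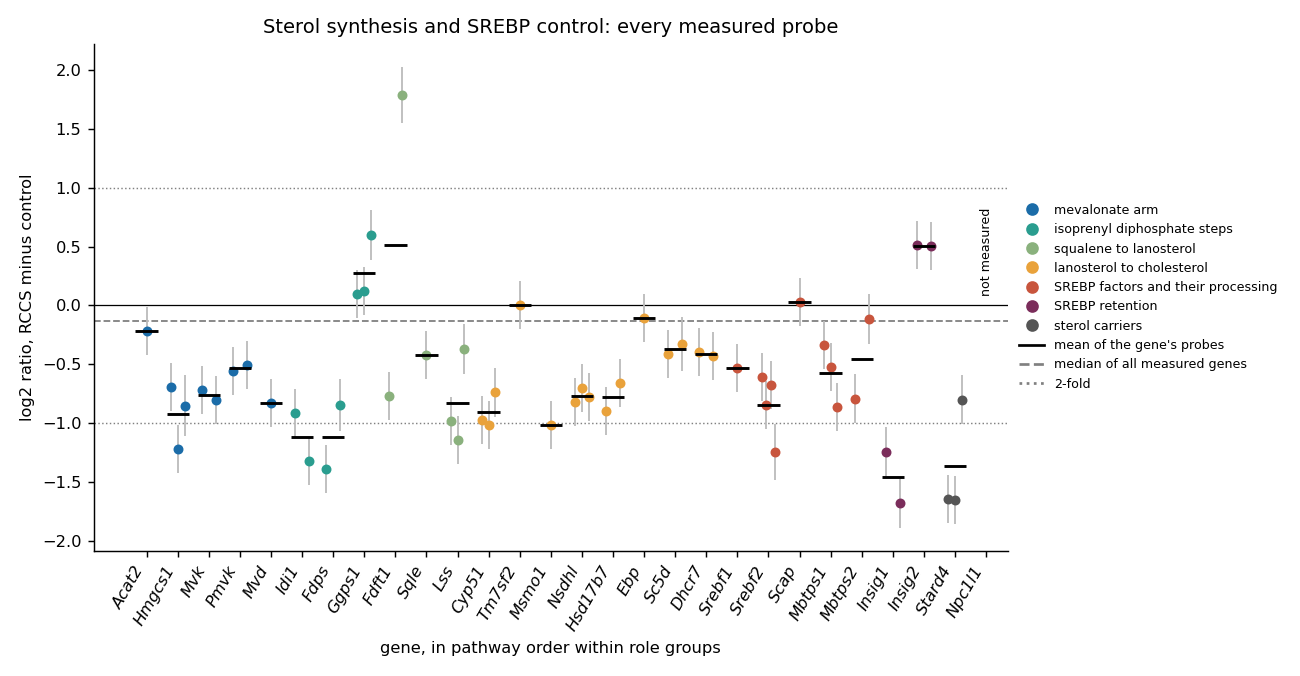
Log2 ratio of processed signal, RCCS minus control (y axis), for each of the 55 measured probes of the 28 genes (x axis, pathway order within role groups); grey bars are the software's spot error (SD), black bars the mean of a gene's probes, the dashed line the median of all measured genes and dotted lines 2-fold. Insig1, Stard4, Fdps and Idi1 have the lowest means, both probes of Insig2 lie near 0.51, and the probes of Fdft1 lie at -0.77 and 1.79.

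Promoter sequences of the RefSeq table (build GRCm38.p6) are shown for the member with the lowest log2 ratio (Insig1), for an enzyme at the head of the pathway (Hmgcs1), for an enzyme of the late pathway (Msmo1) and for the member whose probes were both higher (Insig2). Each is the 250 bases before the start of transcription, read 5′ to 3′ on the gene's strand. Insig1 lies at chr5:28071162-28071411 on the plus strand, Hmgcs1 at chr13:119690101-119690350 on the plus strand, Msmo1 at chr8:64733579-64733828 on the minus strand, and Insig2 at chr1:121332590-121332839 on the minus strand, the most upstream of its 3 starts in the table. Capitals mark 3 motifs on either strand, namely CACNCCAC, a core of the sterol regulatory element that SREBPs bind, CCAAT, the letters bound by NF-Y, and CACGTG, an E-box.
Insig1: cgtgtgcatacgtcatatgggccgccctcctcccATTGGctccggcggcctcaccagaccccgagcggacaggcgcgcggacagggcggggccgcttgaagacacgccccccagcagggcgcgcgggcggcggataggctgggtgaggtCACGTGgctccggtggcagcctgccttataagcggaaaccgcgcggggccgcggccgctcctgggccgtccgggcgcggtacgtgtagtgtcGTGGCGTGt
Hmgcs1: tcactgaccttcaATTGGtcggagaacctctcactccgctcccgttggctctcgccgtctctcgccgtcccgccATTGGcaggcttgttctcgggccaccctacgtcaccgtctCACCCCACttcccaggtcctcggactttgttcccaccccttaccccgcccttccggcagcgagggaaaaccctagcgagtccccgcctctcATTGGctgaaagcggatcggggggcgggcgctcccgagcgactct
Msmo1: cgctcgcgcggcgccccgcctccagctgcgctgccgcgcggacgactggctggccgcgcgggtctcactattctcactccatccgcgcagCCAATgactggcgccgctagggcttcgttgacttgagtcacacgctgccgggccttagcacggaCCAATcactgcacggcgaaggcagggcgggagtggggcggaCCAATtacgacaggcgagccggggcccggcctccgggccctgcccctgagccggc
Insig2: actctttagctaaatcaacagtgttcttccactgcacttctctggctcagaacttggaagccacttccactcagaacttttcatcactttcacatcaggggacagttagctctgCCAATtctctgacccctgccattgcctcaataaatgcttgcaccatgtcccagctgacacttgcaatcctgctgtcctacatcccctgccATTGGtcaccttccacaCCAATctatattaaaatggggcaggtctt

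The Hmgcs1 window held CACNCCAC at 136 bases before the start, there as part of the longer TCACNCCAC, and 3 copies of CCAAT. The Insig1 window held CACNCCAC on the opposite strand 9 bases before the start, 1 CCAAT and 1 CACGTG. The Msmo1 and Insig2 windows each held 3 copies of CCAAT and no CACNCCAC. For Insig2 this is the window of the start shown, which held no GC box (GGGCGG). The windows of its other starts held no CCAAT, and its GGGCGG matches lay in those, 128 and 6 bases before the start. Insig2 therefore counts below as holding both, from different starts. Among 24 members with a promoter in the table (Fdps, Fdft1, Sqle and Stard4 had no match), 20 held CCAAT in at least 1 promoter (83.3%), where 40.3% of 9994 measured genes with a promoter and 37.5% of all 27025 genes of the table did. The GC box GGGCGG was also in 20 members, where 59.7% of measured genes held it. CACNCCAC, searched with its longer form TCACNCCAC inside it, was in 3 members (Insig1, Hmgcs1 and Acat2; 12.5%), where 6.54% of measured genes held it, and CACGTG was in 5 members (20.8%; 9.74% of measured genes). Each of the 11 members with a promoter that were at least 1.5-fold lower held both CCAAT and GGGCGG. Of the other 13 members 9 held CCAAT and 9 held GGGCGG. These 13 include Npc1l1, which has no ratio and held CCAAT without GGGCGG. Such a match describes letters in the window and shows no binding.

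The mevalonate arm was lower for each of its 5 listed genes (Acat2 came above 0 under 4 of 11 alternatives), with a median log2 ratio of -0.76 and 3 of 5 genes at least 1.5-fold lower. Acat2, which joins acetyl-CoA units in the cytosol, was nearest to the rest of the genome, with processed signals of 20174 (control) and 19719.7 (RCCS), or -0.22 after scaling. Hmgcs1, which forms HMG-CoA, had 3 probes that were all lower on the RCCS array. They went from 3719.6 to 2616, from 769 to 374 and from 79.6 to 50.1, and their mean was -0.92 (1.90-fold lower). The file places them on an unplaced sequence, whereas the RefSeq table has Hmgcs1 on chromosome 13. Mvk, the mevalonate kinase, went from 2353 to 1629.6 and from 2207 to 1439 on its probes (-0.76). Pmvk, which adds the next phosphate, showed a smaller difference, from 3017 to 2331 and from 2548 to 2042 (-0.53). Mvd, which makes isopentenyl diphosphate by decarboxylation, went from 4151 to 2651 on its single probe (-0.83).

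Of the isoprenyl diphosphate steps, those on the way to sterols had means more than 2-fold lower and the step that leads away from them did not. Idi1 and Fdps kept that fold in 5 of 11 alternatives each, and 1 probe of each was itself under 2-fold. Idi1, the isomerase of isopentenyl diphosphate, went from 6423 to 3882 and from 2751 to 1253, with a mean of -1.12 (2.17-fold lower). The file places both Idi1 probes on chromosome 2, whereas the RefSeq table has Idi1 on chromosome 13, and whether they also bound a copy of the gene was not tested. Fdps, the farnesyl diphosphate synthase, went from 23846 to 10317 on its bright probe (-1.39) and from 186 to 118 on a dim probe annotated by a cDNA clone (-0.85). Their mean was -1.12. Ggps1, which makes the geranylgeranyl diphosphate that anchors small GTPases to membranes, was slightly higher on each of 3 probes, from 1623 to 1978, from 1419 to 1758 and from 194 to 335 (0.10, 0.12 and 0.60). Only 2.73% of all measured genes lay below Fdps, and 79.6% lay below Ggps1.

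The step into squalene rests on probes that disagree. Fdft1, the squalene synthase, went from 2933 to 1957 on its bright probe (-0.77) and from 62.4 to 245 on its dim probe (1.79), though both carry the same annotated transcript. Its mean of 0.51 therefore describes neither probe, and with the bright probe alone Fdft1 stands with the lower genes. Among all genes with 2 or more measured probes, 7.29% had probes more than 1 apart on the log2 scale. Sqle, the squalene epoxidase, was 1.34-fold lower (5131 to 4362). Lss, which closes squalene epoxide into lanosterol, went from 1502 to 865, from 1488 to 764 and from 193 to 169.9, with a mean of -0.83. The bright probes of Lss stood at -0.98 and -1.15, and the dim one, annotated by a cDNA clone, at -0.37.

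From lanosterol to cholesterol the differences were unequal among the 8 enzymes, whose median was -0.59. The enzymes that strip the methyl groups of lanosterol had the lowest values. Cyp51, which removes the first, had 3 probes at -0.97, -1.02 and -0.74 (1649.7 to 956, 1418 to 797 and 366 to 249.7). Msmo1, the methylsterol oxidase, went from 13999.8 to 7848 (2.03-fold lower, 1 probe). Nsdhl, which acts after it, was lower on each of 3 measured probes, from 3198 to 2058, from 1863 to 1302 and from 1419 to 941 (mean -0.77). Its remaining probe did not pass background. Hsd17b7, the ketoreductase of the same cycle, went from 984 to 601 and from 688 to 495 (-0.78). The enzymes that then rearrange and reduce the ring system lay closer to the median of all genes. Ebp, the isomerase, had 13067 and 13758 (-0.11), Sc5d, the desaturase, had 2963 and 2531 on its bright probe (gene mean -0.37), and Dhcr7, the last reductase, had 2494 and 2157 on its bright probe (gene mean -0.41). Tm7sf2, a sterol C14 reductase, was equal on both arrays after scaling, with 868 and 988 and a log2 ratio that rounds to 0. Lbr, a nuclear envelope protein with the same reductase activity and no member of the set, went from 6372 to 3728 (-0.96).

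**Figure D2:**
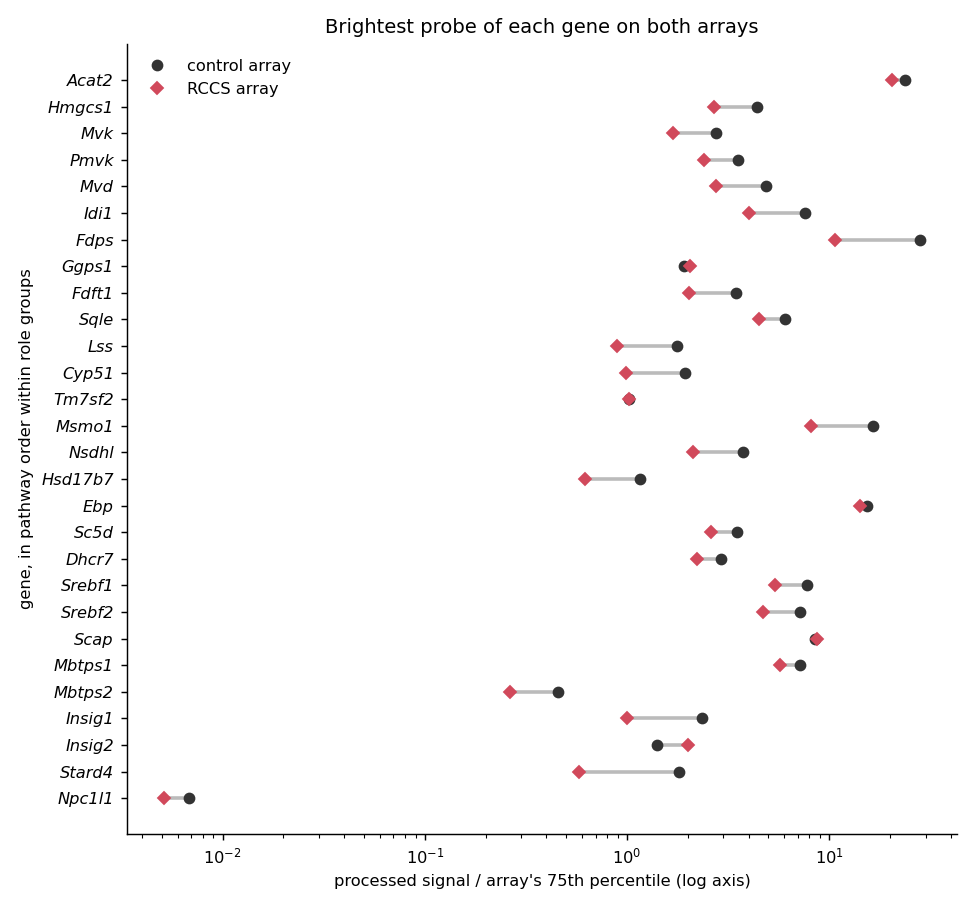
Processed signal of the brightest probe of each of the 28 genes, divided by the array's 75th percentile (x axis, log scale), on the control array (black circles) and the RCCS array (red diamonds). Within a row the symbols can be compared; levels of different genes cannot, since probes differ in brightness. The RCCS symbol lies to the left in most rows, to the right for Insig2, Ggps1 and Scap, and Npc1l1 was at background on both arrays.

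Transcripts of the factors themselves were lower as well, and those of their processing machinery were divided. Cleavage of the precursor proteins was not measured. Srebf2, which encodes the main activator of sterol genes, was lower on each of 4 probes. These went from 6072 to 4534, from 2207 to 1392, from 2078 to 1477 and from 126 to 60.6, with a mean of -0.84 (1.80-fold lower). Srebf1, whose products favour fatty acid genes, was measured by 1 probe, which does not separate its isoforms here, and went from 6622 to 5209 (-0.53). Scap, the escort, had 7240.4 and 8386, a ratio of 1.02. Mbtps1, the first protease to cut the precursor in the Golgi, went from 6129 to 5519.95, from 1181 to 934 and from 444 to 278 (mean -0.57). Mbtps2, the second, went from 388 to 255 on one probe (-0.79) and from 179 to 187 on a probe annotated to another transcript (-0.12). Its remaining probe, annotated by a cDNA clone, was not well above background.

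The INSIG genes differed in direction. Insig1, a brake on SREBP processing and itself an SREBP target, went from 2009 to 966 and from 1083 to 383 (-1.24 and -1.68). Its mean of -1.46 (2.76-fold lower) was the lowest of the members, and 1.20% of all measured genes lay below it. Insig2, which holds SCAP back in the same way but is not known as a sterol-driven SREBP target, went from 1190.3 to 1929 and from 488 to 788, on probes annotated to different transcripts. Both probes gave 0.51 (1.42-fold higher for the gene), and 88.3% of all measured genes lay below it. The remaining Insig2 probe, annotated by a cDNA clone, was not well above background. The probes of the pair thus lay on opposite sides of 0.

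Stard4, a soluble carrier that moves cholesterol between membranes and is induced when sterols are low, was the second lowest member. Its probes went from 1535 to 557, from 1370.5 to 496 and from 994 to 649 (-1.65, -1.65 and -0.80), and the gene mean was -1.37 (2.58-fold lower). Npc1l1, the transporter of dietary sterol uptake in the gut, did not pass background (5.77 and 4.98 on the control and RCCS arrays), so it has no ratio.

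Among genes that share the pathway's products or its regulators, the fatty acid genes had a median near that of the members. These lists were set with earlier results of these data known. Of 17 fatty acid synthesis and desaturation genes measured, 16 lay below 0, beside 61.8% of all measured genes, and 12 (70.6%) below the median of all genes, beside 50%. Their median was -0.46. Lower by 2-fold or more were 2 of them, both desaturases, where 3.76% of all genes were. Scd1 went from 980.1 to 292 (-1.93) and Scd2 from 13127 to 4580.1 (-1.70), followed by Fads2, a desaturase of polyunsaturated fatty acids (-0.93), and Gpam, which starts glycerolipid synthesis (-0.85). In the branch that uses isoprenyl diphosphates for other products, 13 of 14 genes were measured, 0 were at least 2-fold lower or higher (3.76% and 3.88% of all genes) and the median was -0.17, close to that of all genes. Pdss1, which makes the ubiquinone side chain, stood lowest there at -0.89, ahead of Fntb, a farnesyltransferase subunit (-0.50), and Coq2 (-0.44).

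Other genes of sterol sensing and turnover had a median of -0.14 over 16 measured of 17, with 1 gene at least 2-fold lower and 0 higher, near the 3.76% and 3.88% of all genes. That gene was Tmem97, a membrane protein known to respond to sterol depletion, which went from 20494 to 11619.7 (2.01-fold lower, 1 probe). Its log2 ratio of -1.004 is barely past 2-fold. Scaling at the median, which moves every gene up by 0.023, takes it under that fold. Lbr came next, and Npc2, the lysosomal cholesterol carrier, was at -0.71. Soat1, which esterifies cholesterol for storage, was higher at 0.71, with 4 probes from 0.19 to 1.78. The 11 genes of LXR signalling and efflux, a system that answers sterol excess, had a median of -0.14 with 2 at least 2-fold higher and 0 lower, where 3.88% and 3.76% of all genes were. Those were Arl4c, a small GTPase (144 to 1131, 2.78), and the cholesterol exporter Abca1 (336 to 1385, 1.86), while Rxra, the partner of LXR, was at 0.53 and the phospholipid transfer protein Pltp at -0.90. Of these 11 genes 6 lay below 0, beside 61.8% of all measured genes, and 5 above it. The difference between the members and each of these lists was not tested.

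**Figure D3:**
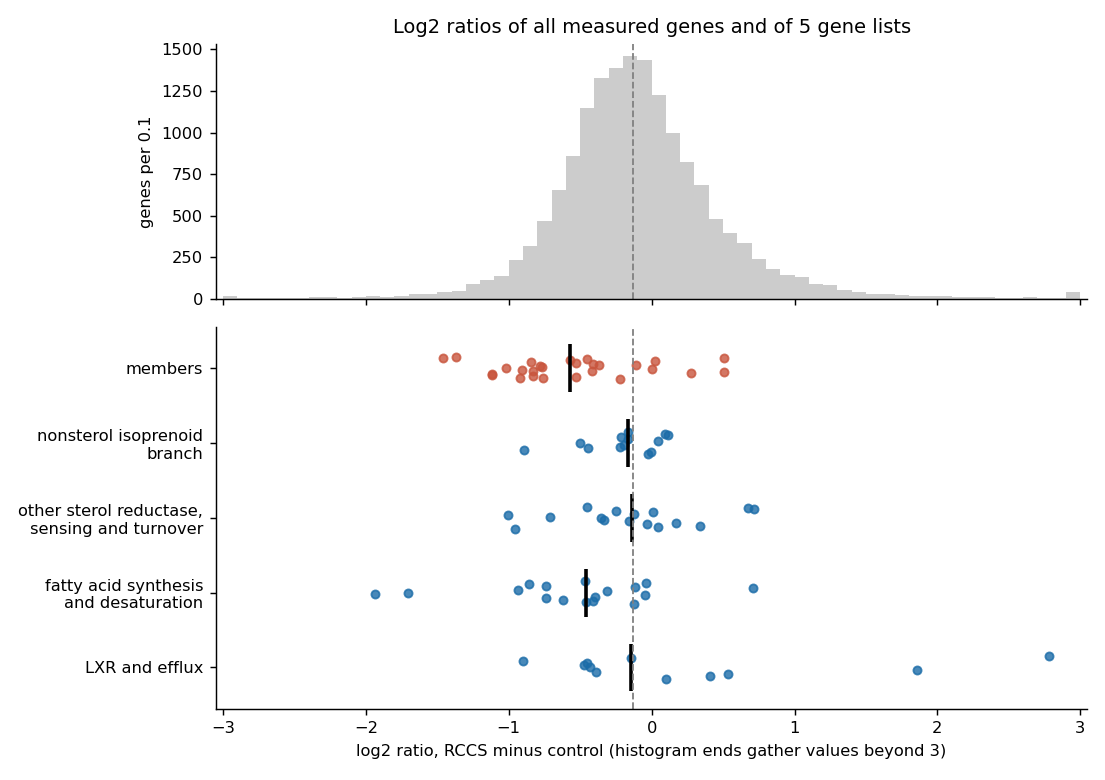
Top, number of genes in steps of 0.1 of the log2 ratio, RCCS minus control, for all 16022 measured genes; bottom, each measured gene of the 28 members (red) and of 4 related lists (blue), with black bars at the list medians and the dashed line at the median of all genes (-0.13). The medians of the members (-0.57) and of the fatty acid genes (-0.46) lie to the left of the dashed line, and the other 3 lie close to it.

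The number of members past 2-fold moved with the scaling and normalization. Insig1 and Stard4 were at least 2-fold lower under each of 11 alternatives, whereas Idi1, Fdps and Msmo1 were so in 5 of the 11 each. Relative to the median of all genes, the median of the members ran from -0.57 to -0.30. Insig2, Ggps1 and Scap were above 0 under all 11, and Fdft1 was below 0 where its brightest probe was used. Acat2, Ebp and Tm7sf2 changed sign with the scaling or normalization. Tm7sf2, which rounds to 0 as reported, was below 0 in 3 of the 11 and at 0.33 on spike-ins.

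**Figure D4:**
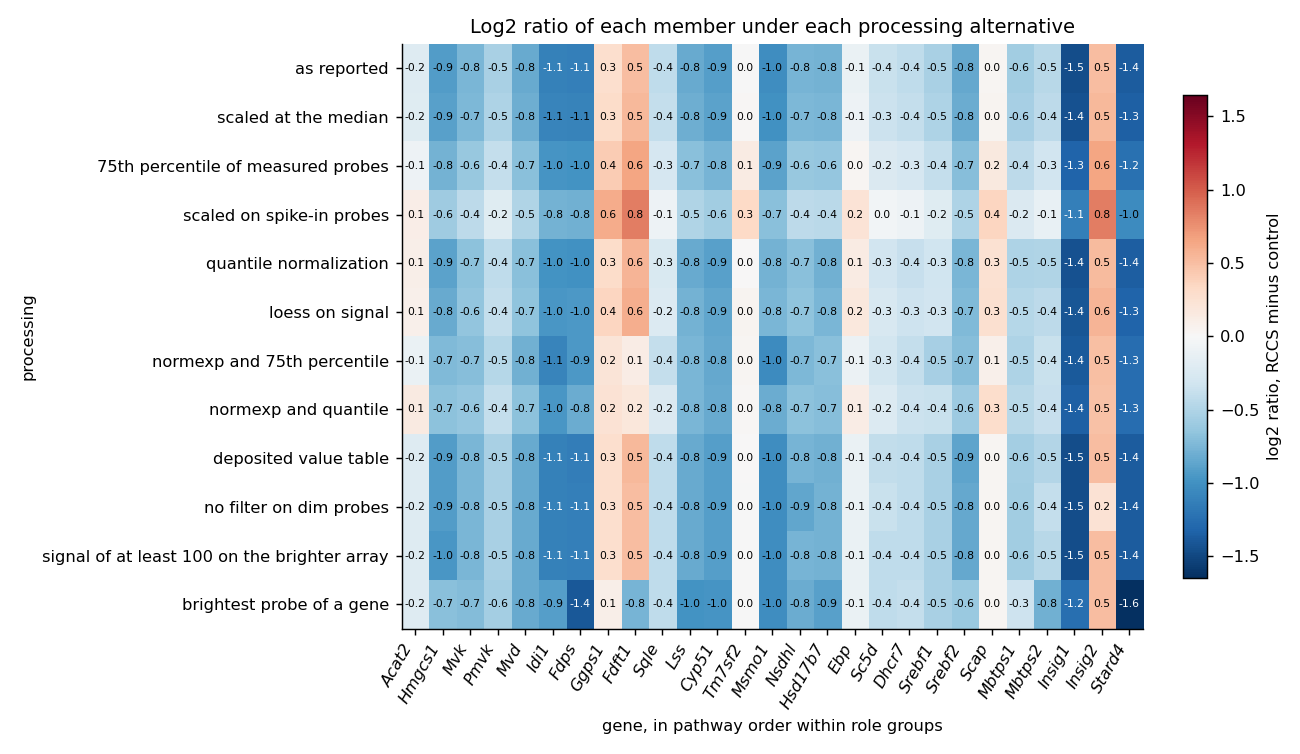
Log2 ratio, RCCS minus control (colour and printed value), of the 27 measured members (columns, pathway order within role groups) as reported (top row) and under the 11 processing alternatives (other rows). Insig1 and Stard4 stay below -1 throughout, Insig2, Ggps1 and Scap stay above 0, and Fdft1 is below 0 only in the bottom row.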

How the data were processed

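RNA of 2 samples was hybridised to Agilent whole mouse genome arrays, 1 array per group, in 1 colour. The authors deposited each spot's linear intensity. Agilent Feature Extraction 9.5.3.1 had subtracted background and surface trends, per the file headers, and had not scaled the arrays to each other. The authors also deposited a table with a ratio of each probe's signal to a level of its own array, with a lowest value of 0.01, which served as an alternative. How it was centred is not stated.

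From these, spots called outliers on either array were left out (117 and 120 spots, which removed 3 of 41174 probes), 0 spots being saturated. Spots of a probe were averaged. The log2 ratio is RCCS minus control after scaling at the 75th percentile over non-control probes. A probe was measured where at least 50% of its spots were well above background on both arrays, and a gene took the mean of its measured probes. Accessions of 22950 probes took symbols of the RefSeq table of GRCm38.p6, used for names alone, since no source used here names the array's build. All members are named, with up to 4 genes of each related list by absolute log2 ratio; Lbr's place beside Tm7sf2 is by function. Members and lists were chosen with earlier results of these data known. Some genes of the pathway are not reported here.

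With 1 array per group no test was run; counts past 2-fold stand beside the share of all measured genes. Alternatives were other scalings (median, measured probes, spike-ins), quantile and loess normalization (statsmodels 0.14.6), normexp with an offset of 50 (limma 3.58.1), the deposited table, other filters, the brightest probe, and folds of 1.5 and 3. The calculation was tested on simulated data. The number of arrays limits the precision.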

Additional observations from a re-analysis of the deposited data

How the results depend on the processing

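The count of members at least 2-fold lower was 5 as reported. It was 2 with the 75th percentile of measured probes and on spike-ins (7 of 10 such probes measured, median -0.31). It was also 2 with quantile normalization, with loess and with normexp and quantile normalization. It was 13 at 1.5-fold and 0 at 3-fold. Between 20 and 24 members were below 0 over the 11 alternatives, not always the same ones. Of all genes, 32.2% (spike-ins) to 65.9% (no filter on dim probes) were below 0. With no filter there are 28 members, Npc1l1 among them. Spike-in scaling moved all genes up by 0.33 and the members' median to -0.24, which leaves it -0.44 from the median of all genes, as before. It put the medians at -0.43 (mevalonate arm), -0.78 (isoprenyl diphosphate steps), -0.088 (squalene to lanosterol), -0.26 (lanosterol to cholesterol), -0.20 (SREBP factors and their processing), -0.15 (SREBP retention), -1.03 (sterol carriers, Stard4 alone), 0.17 (nonsterol branch), 0.19 (sterol sensing and turnover), -0.13 (fatty acid synthesis) and 0.19 (LXR and efflux). The isoprenyl steps came to -0.81 with normexp and quantile normalization, the squalene steps to -0.77 with the brightest probe, and the sterol carriers to -0.88 with no filter on dim probes, where background values of Npc1l1 enter, and to -1.65 with the brightest probe. Of all 16022 genes, 603 were at least 2-fold lower and 622 higher as reported, and 250 and 1271 on spike-ins. These counts were 416 and 833 with the 75th percentile of measured probes and 434 and 757 with loess. They were 248 and 415 with normexp and quantile normalization, and 346 and 364 with normexp and the 75th percentile. With no filter on dim probes they were 1803 and 1607 of 28781 genes (6.26% and 5.58%, beside 3.76% and 3.88% as reported). For these moved values the cause was not tested. No member called at 2-fold changed direction. Probes under 100 on at least 1 array decide Fdft1 and weigh on Hmgcs1, Srebf2 and Sc5d. The filter at 100 on the brighter array kept those of Fdft1 and Srebf2. It moved Hmgcs1 to -0.96 and Sc5d to -0.41. No paired analysis was possible because each group has 1 array and no replicate number in the labels.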
